A study of Homo sapiens with 6 samples.

Results

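The gamma-tubulin ring complex is the template from which microtubules grow. Gamma-tubulin, a relative of the tubulins that build the microtubule wall, is held in a ring by the GCP proteins, and the ring caps the minus end of the new microtubule. MZT1 is a very small protein that binds the amino-terminal parts of GCP proteins, and NEDD1 carries the complex to the centrosome and to the spindle. Dividing cells need these proteins to build a bipolar spindle.

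The 9 genes described here are MZT1, the gamma-tubulin genes TUBG1 and TUBG2, the GCP genes TUBGCP2, TUBGCP3, TUBGCP4, TUBGCP5 and TUBGCP6, and the targeting factor NEDD1, out of 18132 genes with a probe set. A gene was taken where a probe set carried its symbol alone, and its brightest probe set by mean signal in the 6 arrays stood for it. The remaining probe sets of the gene served as a check. MZT1 was selected on its difference between the groups in these same arrays, so its values are given as a description, with no test. The partners were included as members of the complex, and all 9 passed the filter on low signals.

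The cells were TE-1, an established line of human oesophageal squamous cell carcinoma. In the knockdown group EIF3C had been stably reduced; it encodes a subunit of the translation initiation factor eIF3. The control group was the parental TE-1 cells. Total RNA was hybridised to Affymetrix arrays, 3 per group and labelled as biological replicates. The knockdown arrays come from 1 clone, no cells with a control construct were described, and nothing states that replicates were separate cultures, so p-values rest on the spread among these arrays alone, and that spread may be technical. In bulk RNA, fewer cells of a type and less RNA per cell cannot be told apart.

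EIF3C was lower in the knockdown. Its 3 bright probe sets, all shared with the near-identical EIF3CL, differed by -2.15 to -2.22 on the log2 scale (knockdown minus control). Dim probe sets shared in the same way, with control means of 4.39 and 4.53, gave -0.58 and -0.97. Median log2 signals of the arrays lay between 6.09 and 6.11. Of the 7 epithelial and squamous markers measured, CDH1 (control mean 11.21), EPCAM (11.89), PERP (9.98) and the desmosomal cadherin gene DSG3 (8.14) were above the array medians, while the squamous keratins KRT5 (5.91) and KRT14 (5.85) and the squamous lineage factor SOX2 (5.77) were below them. In knockdown, DSG3 (-0.70), PERP (-0.47) and SOX2 (-0.25) were lower, CDH1 (0.23) and EPCAM (0.21) were higher, and the keratins were not called. TP63, KRT17 and KRT6A were not analysed here. Among markers of other cell types, 5 of 7 fibroblast genes and 3 of 5 leukocyte genes fell among the lowest 25% of genes, as did 1 of 5 endothelial genes. Mean log2 signals of these lists ran from 4.32 to 4.35 in control and 4.37 to 4.50 in knockdown for fibroblast genes. For leukocyte genes they were 4.16 to 4.27 and 4.09 to 4.19, and for endothelial genes 5.25 to 5.36 and 5.30 to 5.33. Of the tested genes in these lists, CDH5 was higher in knockdown (0.46), KDR (-0.26) and COL1A1 (-0.21) were lower, and the other 5 were not called. The fibroblast gene FAP, dim and not tested, stood at 3.88 in control and 4.72 in knockdown, with every knockdown array above. The part of other cells in the results was not tested.

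MZT1 and the adjacent gene BORA are transcribed away from each other, with 293 bases between their start bases, so a single short stretch lies before both. BORA encodes an activator of the mitotic kinases Aurora A and PLK1. The stretch is shown because the pair sits on it while the genes differed unequally in size (values below). The stretches before TUBG1 and TUBG2 do not overlap, and they are shown because these neighbours on chromosome 17 encode nearly the same protein and differed in call. Each is the 250 bases before the start base, from RefSeq on GRCh38.p14, read 5′ to 3′ on the strand of the gene. Capitals mark CCAAT, known as the NF-Y motif, and TTTGAA or TTCGAA, forms of the element called CHR in cell cycle promoters, searched on both strands (reverse forms ATTGG and TTCAAA).
MZT1, chr13:72727630-72727879, minus strand: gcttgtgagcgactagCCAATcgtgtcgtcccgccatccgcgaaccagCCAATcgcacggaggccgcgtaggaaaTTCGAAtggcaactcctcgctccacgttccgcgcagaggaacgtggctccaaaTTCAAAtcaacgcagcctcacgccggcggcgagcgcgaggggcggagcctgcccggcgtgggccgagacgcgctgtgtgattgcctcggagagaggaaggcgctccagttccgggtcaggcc
TUBG1, chr17:42609433-42609682, plus strand: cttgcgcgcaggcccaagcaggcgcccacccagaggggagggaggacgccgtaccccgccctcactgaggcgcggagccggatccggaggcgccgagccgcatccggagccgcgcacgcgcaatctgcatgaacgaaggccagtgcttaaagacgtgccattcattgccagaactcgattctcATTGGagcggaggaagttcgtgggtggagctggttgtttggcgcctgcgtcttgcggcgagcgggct
TUBG2, chr17:42659034-42659283, plus strand: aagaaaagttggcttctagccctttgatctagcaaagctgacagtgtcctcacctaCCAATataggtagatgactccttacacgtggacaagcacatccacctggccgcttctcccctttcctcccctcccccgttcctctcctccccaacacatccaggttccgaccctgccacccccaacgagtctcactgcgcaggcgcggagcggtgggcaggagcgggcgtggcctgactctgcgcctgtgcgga

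The MZT1 stretch held 2 matches to CCAAT, 1 to TTCGAA and 1 to TTTGAA, the last on the opposite strand. The CCAAT matches began 234 and 202 bases before the MZT1 start, TTCGAA 175 and TTCAAA 122 bases before it. Read from BORA, the same matches, in the same order, began 64, 96, 124 and 177 bases before its start. Among 35114 such windows of all genes in the RefSeq table, 32% held CCAAT, 9.53% held it at least 2 times, 13.3% held TTTGAA and 1.19% held TTCGAA. TUBG1 and TUBG2 each had 1 match to CCAAT and none to the CHR forms, and TUBGCP5 had 1 to CCAAT. No match to these 3 motifs was found for TUBGCP2, TUBGCP3, TUBGCP6 or NEDD1, while TGACGTCA, the CREB and ATF motif, was found in 1 of the 2 windows each of TUBGCP2 and NEDD1 (1.65% of all windows). The table held windows for 8 of the 9 genes, TUBGCP4 being the exception. These are matches of letters, chosen after the MZT1 sequence had been read, and binding was not measured.

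The genes of the complex differed in size and call. MZT1, selected on its difference and so described without a test, was far higher in the knockdown. Among its partners, TUBGCP4 and TUBG1 were clearly higher, and TUBGCP3 and NEDD1 were higher by small amounts. TUBG2, TUBGCP2, TUBGCP5 and TUBGCP6 did not pass the test. Across all 13599 genes tested with limma (Benjamini-Hochberg adjusted p under 0.05), 66.5% passed, 32.4% as higher and 34.1% as lower. Against that background, 4 of the 8 partners of MZT1 passed, all higher. Called changes of at least 2-fold upward made up 2.6% of all genes and downward 2.22%, and TUBGCP4 was the partner among the former. The median difference of the 8 partners was 0.13, beside -0.03 for all genes tested.

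**Figure D1:**
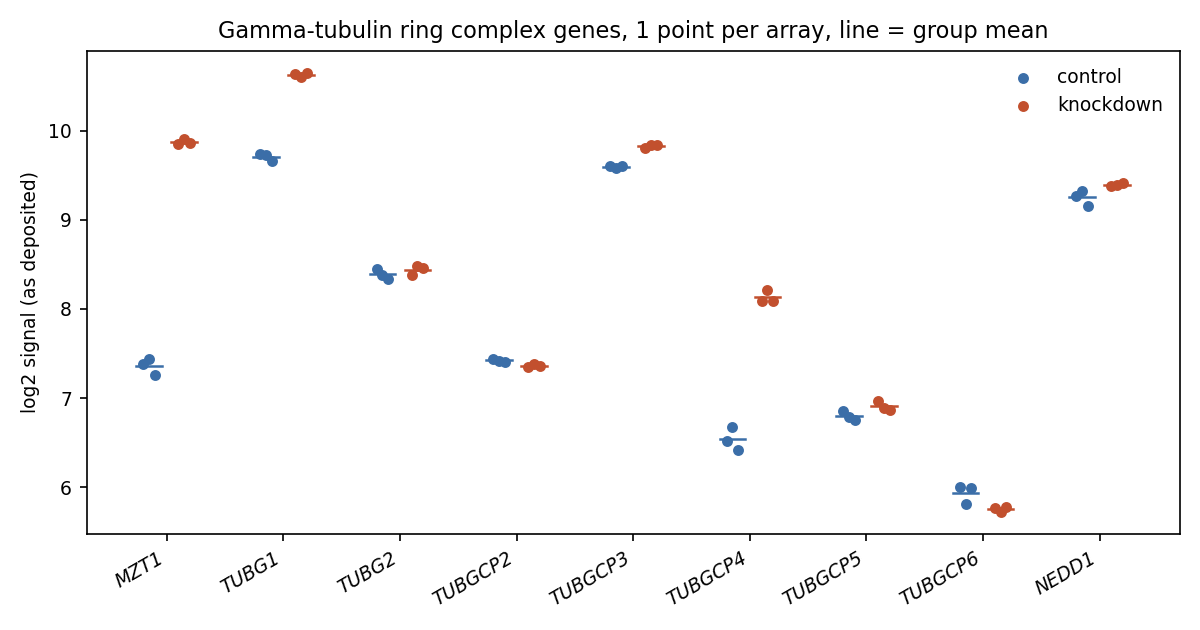
Log2 signal (vertical axis) of each ring complex gene in the 3 control and 3 knockdown arrays, with 1 point per array and a line at each group mean. The groups stand well apart for MZT1, TUBG1 and TUBGCP4, overlap for TUBG2, and lie close together for the remaining genes; heights of different genes are not comparable.

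MZT1 log2 signals were 7.38, 7.44 and 7.26 in control replicates 1 to 3 and 9.85, 9.91 and 9.86 in knockdown replicates 1 to 3. Every knockdown array lay far above every control array. The means were 7.36 ± 0.09 and 9.87 ± 0.03 (SD, n = 3 each), a difference of 2.52 on the log2 scale (SE 0.05), or 5.72-fold. Both further probe sets of MZT1 gave values of the same order. One went from 7.29 ± 0.08 to 9.57 ± 0.09, a difference of 2.28, and the other from 6.72 ± 0.08 to 9.30 ± 0.08, a difference of 2.58 (SD, n = 3 each).

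The gamma-tubulin genes TUBG1 and TUBG2 encode nearly identical proteins and lie next to each other, and their values differed in kind. TUBG1, the main gamma-tubulin of dividing cells, measured 9.73, 9.72 and 9.66 in the control arrays and 10.64, 10.60 and 10.65 in the knockdown arrays, with no overlap. The difference was 0.93 (SE 0.03, 95% interval 0.86 to 0.99), or 1.90-fold, with a limma adjusted p of 6.05e-14. TUBG2 measured 8.44, 8.39 and 8.34 in control and 8.39, 8.48 and 8.46 in knockdown, so the groups overlapped. Its difference of 0.05 (SE 0.04, 95% interval -0.04 to 0.14) did not pass (limma adjusted p = 0.304). A further TUBG2 probe set, of a type whose probes can match other transcripts, was higher by 0.19 (limma adjusted p = 0.00209). Its difference lay within the -0.22 to 0.20 of the non-human control probe sets, which read no human transcript. Probe sets of the same type as that TUBG2 one stood for some genes named below, among them TUBA4A, CCP110, NEK7 and MZT2A. TUBG1 has a single probe set, so it has no such check.

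TUBGCP2 and TUBGCP3 encode the GCP proteins that pair with gamma-tubulin in the small complex, the building block of the ring. TUBGCP3 measured 9.60, 9.58 and 9.60 in control and 9.80, 9.83 and 9.83 in knockdown. All knockdown arrays were higher, by a mean of 0.23 (SE 0.03), or 1.17-fold (limma adjusted p = 2.20e-06). Of its 4 further probe sets, 3 were also called higher, at 0.28, 0.35 and 0.29, and a dim one stood at 0.11 and was not called. TUBGCP2 measured 7.44, 7.42 and 7.40 in control and 7.35, 7.38 and 7.36 in knockdown. The arrays did not overlap, yet the difference of -0.06 (95% interval -0.17 to 0.04) did not pass (limma adjusted p = 0.285). None of its 5 probe sets was called, and their differences ran from -0.11 to 0.12.

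TUBGCP4, TUBGCP5 and TUBGCP6 encode the GCP proteins that are found only in the large ring, where they occupy particular places among the small complexes. TUBGCP4 measured 6.52, 6.67 and 6.42 in control and 8.08, 8.21 and 8.09 in knockdown. The groups were far apart, with a difference of 1.59 (SE 0.07, 95% interval 1.45 to 1.73), or 3.01-fold, and a limma adjusted p of 1.23e-12. Its other probe set rose by 1.35. TUBGCP5 measured 6.86, 6.79 and 6.76 in control and 6.97, 6.89 and 6.87 in knockdown. The knockdown arrays lay just above the control arrays, and the difference of 0.11 (95% interval -0.02 to 0.23) did not pass (limma adjusted p = 0.121), while its other probe set stood at -0.03. TUBGCP6 measured 6.001, 5.81 and 5.99 in control and 5.77, 5.72 and 5.78 in knockdown. Its difference of -0.17 (95% interval -0.34 to -0.01) narrowly missed the threshold (limma adjusted p = 0.0541). It passed in 3 of 14 alternatives. These left out control replicate 2 (-0.23, limma adjusted p = 0.019), used the replicate block (0.0383) or dropped the intensity trend (0.0272). With the mean of its probe sets it stood at -0.13 and did not pass (limma adjusted p = 0.137). The other TUBGCP6 probe set stood at -0.08, with overlapping groups, and was not called. Both group means of the gene, 5.93 and 5.76, lay below the array medians.

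NEDD1 measured 9.27, 9.33 and 9.16 in control and 9.37, 9.39 and 9.41 in knockdown. The knockdown arrays lay just above, with a difference of 0.14 (SE 0.04), or 1.10-fold (limma adjusted p = 0.00452). With quantile normalization the difference was 0.08 and the call was lost (adjusted p = 0.0515), and with the mean of its 4 probe sets it was 0.22. Of its further probe sets, a pair gave larger values, 0.38 and 0.26, and another stood at 0.10 and was not called.

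Leaving out the 3 probe sets of MZT1, 11 of the 23 probe sets of its partners were called higher, 0 lower and 12 were not called in the limma fit over every human probe set, where 48.2% of 49293 were called, 24.1% as higher and 24.1% as lower. The groups did not overlap for 7 of the 8 partners, 5 with the knockdown above and 2 below, beside 70.3% of all genes tested, with 33.6% having the knockdown above. Non-human control probe sets, which read no human transcript, differed between the groups by -0.22 to 0.20. Of the called partners, NEDD1 lay within that range and TUBGCP3, at 0.23, just outside it.

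**Figure D2:**
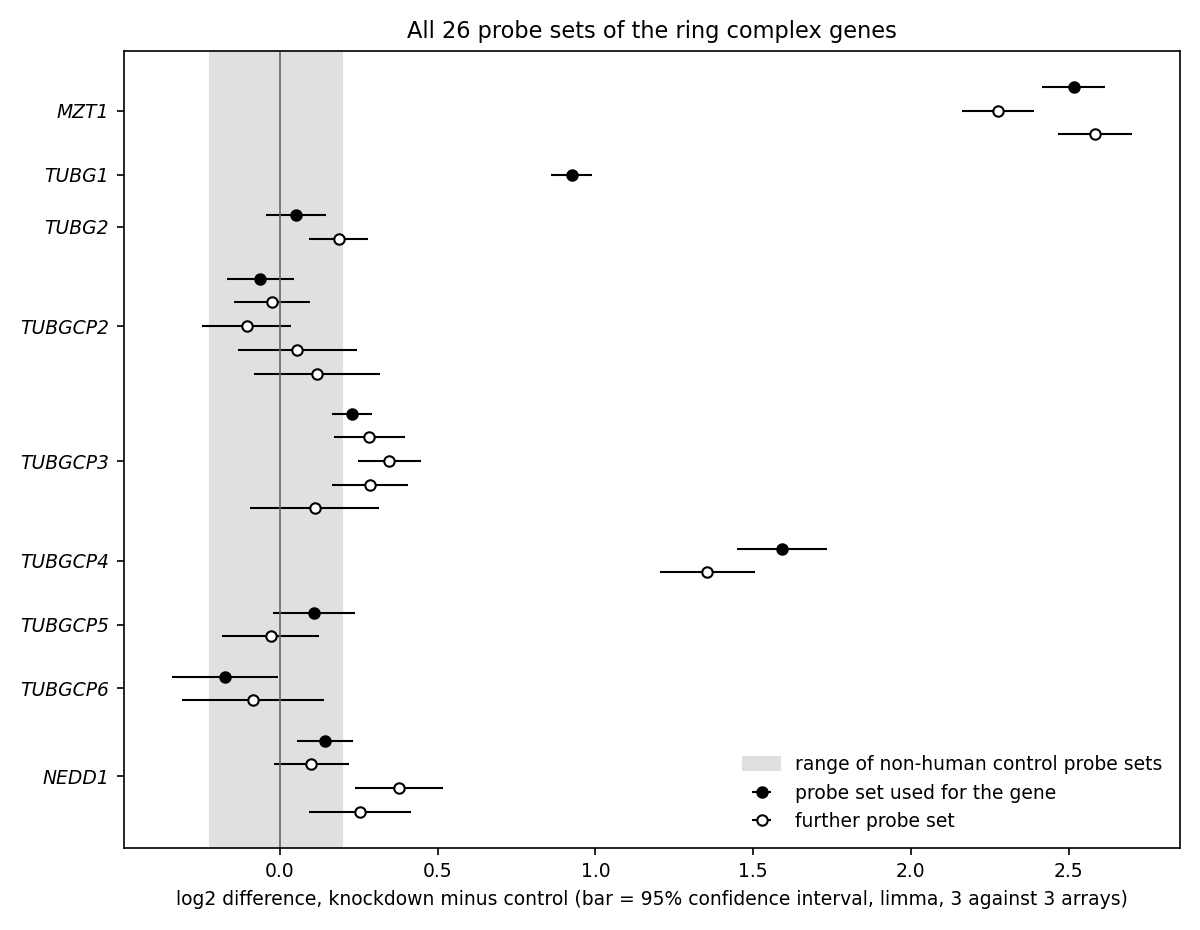
Log2 difference (horizontal axis, knockdown minus control) of every probe set of the 9 genes, with bars for the limma 95% interval from 3 against 3 arrays and grey for the span of the non-human controls, -0.22 to 0.20. Filled points are the probe sets used for the genes and open points the further ones. Points of MZT1 lie between 2.28 and 2.58 and those of TUBGCP4 at 1.35 and 1.59, away from the rest. The bars of MZT1 make no allowance for its selection on this difference and are no test.

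The genes beside MZT1 were compared next. On one side, BORA, DIS3 and PIBF1 follow MZT1 in this order with no other protein-coding gene between them, and all 3 were higher in the knockdown. BORA measured 9.36, 9.39 and 9.42 in control and 9.82, 9.77 and 9.86 in knockdown, a difference of 0.43 (SE 0.03, limma adjusted p = 3.77e-09), with 0.31 and 0.46 on its further probe sets. The difference of MZT1 was larger on each of its probe sets than that of BORA on any. Because MZT1 was selected on its difference in these arrays, this order is a description and no test of the pair. DIS3, the catalytic ribonuclease of the RNA exosome, rose by 0.62 (SE 0.04, limma adjusted p = 1.99e-10), and PIBF1, a protein of centriolar satellites, by 1.29 (SE 0.05, limma adjusted p = 1.65e-12). PIBF1 measured 7.31, 7.27 and 7.10 in control and 8.51, 8.52 and 8.51 in knockdown, and 3 further probe sets gave 1.29, 1.31 and 1.31. Its dim probe sets gave 0.48 and 0.08. A further DIS3 probe set with a control mean of 8.45 was higher by 0.68 (limma adjusted p = 9.99e-10). Another DIS3 probe set, with a control mean of 6.70, stood at -0.11 and was not called.

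Beyond PIBF1, the epithelial transcription factor gene KLF5 stood at -0.03 (95% interval -0.10 to 0.04) and did not pass. On the other side of MZT1, KLHL1 (-0.13) and PCDH9 (-0.14) did not pass, and both were dim, with control means of 5.15 and 5.55. Farther out, TDRD3 rose by 0.18, within the span of the non-human controls, and the formin gene DIAPH3 by 0.45. Between MZT1 and KLHL1, PCDH9, TDRD3 and DIAPH3 lie 1, 2, 6 and 7 other protein-coding genes, in that order. Of the 8 neighbours, 5 passed as higher and 0 as lower, beside 32.4% higher and 34.1% lower of all genes tested.

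**Figure D3:**
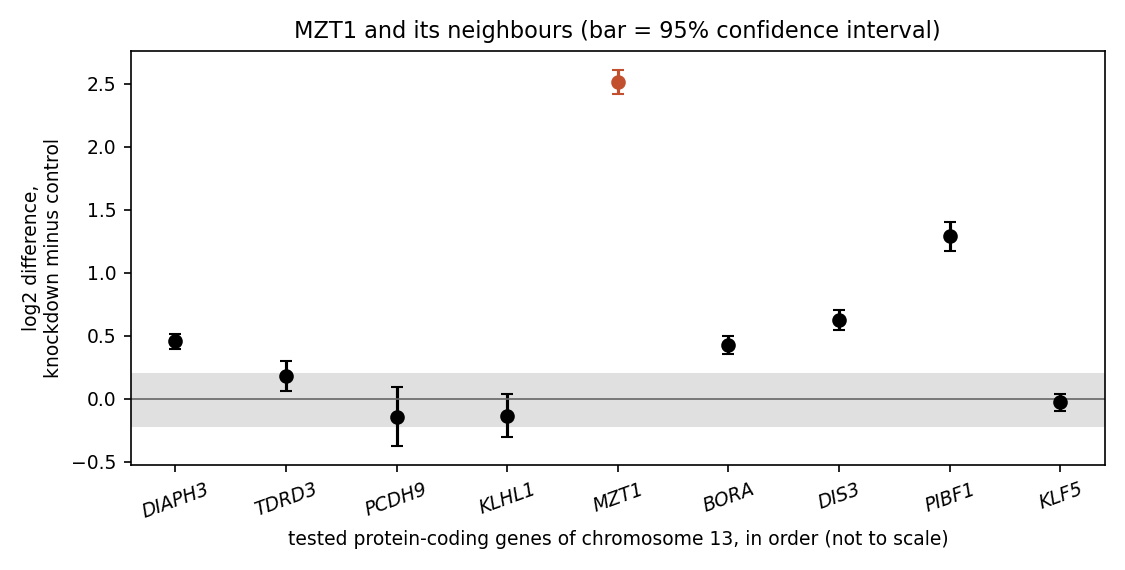
Log2 difference (vertical axis, knockdown minus control) of MZT1, in red, and of 4 tested protein-coding genes on each side of it along chromosome 13, in order and not to scale, with limma 95% intervals and the span of non-human controls in grey. BORA, DIS3 and PIBF1 lie above the grey span at 0.43, 0.62 and 1.29, below MZT1 at 2.52, and KLF5 lies at -0.03. The interval of MZT1 makes no allowance for its selection on this difference and is no test.

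The 5 genes whose values over the 6 arrays were most like those of MZT1 were BTF3L4, ARHGDIB, FAM216A, EREG and DNER. Likeness was the root mean square difference in log2 signal after each gene's control mean was subtracted, and it was 0.07, 0.07, 0.11, 0.12 and 0.17. The step between the groups dominates this measure. ARHGDIB went from 9.59 ± 0.04 to 12.14 ± 0.01 (SD, n = 3 each), and DNER, a transmembrane protein with EGF repeats, from 4.81 ± 0.09 to 7.56 ± 0.05. No other ring complex gene was among them, which follows from the sizes of their differences, the next largest being 1.59 for TUBGCP4.

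Other proteins of the ring were little changed. The MZT1 relative MZT2A was lower by 0.12 (limma adjusted p = 0.00257), and a probe set shared by MZT2A and MZT2B was lower by 0.12 too (limma adjusted p = 0.0327). ACTB, whose actin lies inside the ring, was higher by 0.22 (limma adjusted p = 3.56e-09), or by 0.09 with the mean of its probe sets. The differences of MZT2A and of the probe set shared with MZT2B lay within the span of the non-human controls. MZT2B had no probe set with its symbol alone, and another, annotated to PHGDH and MZT2B, stood at -0.05 and was not called. NME7, a kinase of the ring, was not analysed here.

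Proteins that bring the complex to centrosomes or turn it on went both ways. Of 13 tested, 5 were higher, 3 lower and 5 not called, with a median of 0.05 beside -0.03 for all genes. The share called, 61.5%, was near the 66.5% of all genes. Besides PIBF1, the satellite scaffold PCM1 rose by 0.76 (0.29 with the mean of its probe sets) and SPAG5, or astrin, by 0.65. CDK5RAP2, which binds and activates the ring, fell by 0.43 (0.24 with the mean of its probe sets). The adjusted p of these 4 genes was at most 6.15e-08 in limma.

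The subunits of augmin, which recruits the ring to the sides of existing microtubules in the spindle, were mostly higher. Of 8 tested, 6 were higher, 1 lower and 1 not called, beside 32.4% higher and 34.1% lower of all genes, and their median was 0.41, beside -0.03 for all genes. HAUS6, which contacts NEDD1, measured 5.99, 6.07 and 6.05 in control and 7.13, 7.22 and 7.13 in knockdown, a rise of 1.13. HAUS8, which binds the microtubule, rose by 0.83 and HAUS3 by 0.61, while HAUS4 fell by 0.66 (limma adjusted p at most 6.71e-09 for these 4). HAUS3 was no longer called with the mean of its probe sets (0.03, adjusted p = 0.758).

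Kinases that prepare the centrosome for mitosis, listed with their activator BORA, were split, with 3 of 7 higher and 3 lower (median -0.05). Of all genes tested, 32.4% were higher and 34.1% lower, with a median of -0.03. NEK7 fell by 0.60 and NEK6 by 0.43, both activated by NEK9 in mitosis, whereas PLK1, which promotes the recruitment of NEDD1, rose by 0.34 (limma adjusted p at most 0.000115 for these). Of 19 centriole duplication genes, 12 were higher, 4 lower and 3 not called (median 0.21), beside the same 32.4% higher and 34.1% lower of all genes. The largest were CCP110, which caps the growing centriole, at 0.94, the centrin gene CETN3 at 0.90, the delta-tubulin gene TUBD1 at 0.62 and POC5 at 0.47 (limma adjusted p at most 8.42e-05). Over all 7 such lists, including the tubulins and their folding factors, 47 of 61 tested genes were called, or 77%, beside 66.5% of all genes, with 30 higher and 17 lower and a median of 0.10.

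**Figure D4:**
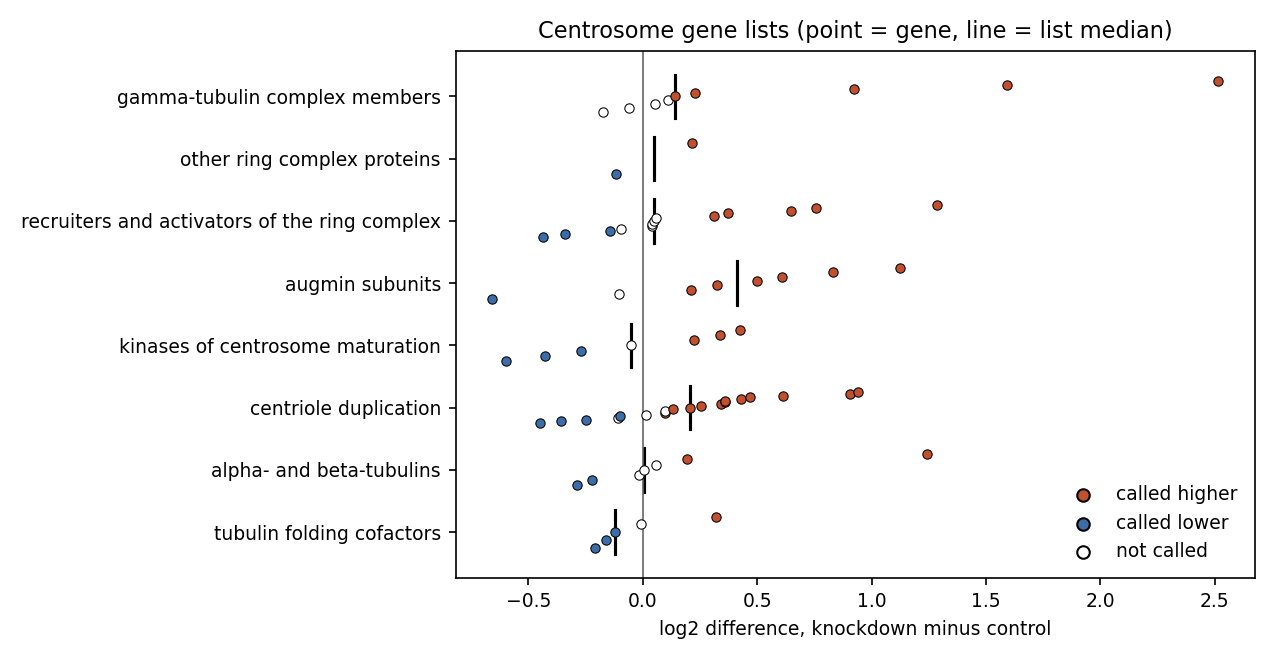
Log2 difference (horizontal axis, knockdown minus control) of each tested gene of the ring complex and of 7 related lists, 1 point per gene, coloured by its limma call, with a black line at the list median. Augmin has the highest median, 0.41, and each list holds genes on both sides of 0. The ring complex list includes MZT1, which was selected on its difference, so its colour is a description and no test. The median of that list is 0.14 with MZT1 and 0.13 for the 8 partners.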

How the data were processed

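Members and lists were chosen with earlier results of these data known. The values are log2 signals deposited by the authors, 1 column per array and 49395 probe sets; the log2 scale was inferred from their range, 1.95 to 14.1. MAS5 is named per the submitters' processing notes; the sources used here do not give the background correction or scaling. The close array medians were taken as prior scaling, so no normalization was added; a change shared by all genes cannot be measured. Scanner files and detection calls were not analysed here, and precision is limited by the number of arrays. Gene names came from GEO's annotation of the platform, with 44988 of 49293 human probe sets carrying 1 symbol. The lowest 25% of genes by mean were left out. limma 3.58.1 (R 4.3.3; lmFit, eBayes with trend, group only) compared the groups with Benjamini-Hochberg adjustment over 13599 genes, after tests on simulated data; adjusted p-values come from it, and a separate fit covered all probe sets, from which further probe sets are quoted. Named were all members, up to 4 called genes per list by size, 4 tested neighbours on each side of MZT1 and 1 beside other members, and the 5 genes most like MZT1. Squamous and other cell markers were checked as lists. Alternatives covered the filter, normalization, probe set, variance model, array weights, replicate block and each array left out.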

Additional observations from a re-analysis of the deposited data

How the results depend on the processing

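Over 15 alternatives, 7284 to 9352 genes were called (9037 as reported), 3 to 5 of the partners of MZT1 (4 as reported) and 43 to 48 pathway genes (47 as reported); with 1 array left out the ranges were 8457 to 8881, 4 to 5 and 43 to 47. Calls over all probe sets, recomputed under 12 of them by a choice made after seeing the data, ranged from 21681 to 24766 (23773 as reported), and from 21681 to 22980 with 1 array left out. The MZT1 difference stayed between 2.46 and 2.55, TUBGCP4 between 1.47 and 1.66, TUBG1 between 0.88 and 0.94 and TUBGCP3 between 0.18 and 0.25. TUBG2 was called with the mean of its probe sets (0.12, limma adjusted p = 0.00644), still within the span of the non-human controls. Further probe sets turned the sign of 2 genes that were not called: TUBGCP2 gave 0.118 and 0.0551 on its dim ones, and TUBGCP5 gave -0.0289. With the mean of all probe sets, TUBB was no longer called (0.01, limma adjusted p = 0.781) and TBCD stood at -0.10. With the replicate number as a block, 9307 genes were called, and 5 of the partners, TUBGCP6 being added as lower; no other member's call changed. Deviations of same-numbered arrays correlated at 0.08, 0.13 and 0.23 over genes, and 5 of 6 arrays correlated best with their own number, a hint of shared effects from the data. The labels state no pairing and 1 of the 3 correlations was under 0.1, so the block was kept as an alternative. Folds of dim probe sets are uncertain, because background was not separately measured.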

Other observations

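The tubulins that polymerise on the ring were called in both directions. Of 7 alpha- and beta-tubulin genes tested, 2 were higher, 2 lower and 3 not called (median 0.01), and the share called, 57.1%, was below the 66.5% of all genes. TUBA4A rose from 9.47 ± 0.06 to 10.71 ± 0.05 (SD, n = 3 each), a 2.37-fold difference (limma adjusted p = 1.58e-14). TUBB was higher by 0.19, whereas TUBB3 and TUBB4B were lower by 0.29 and 0.22 (-0.29 and -0.22). Many tubulin genes are alike in sequence, and 2 of 10, TUBA1B and TUBB2B, had no probe set with a single symbol. Of the 5 tubulin folding cofactors, TBCB was higher by 0.32, TBCA, TBCC and TBCD were lower (-0.12, -0.21 and -0.16) and TBCE was not called. The differences of TBCA, TBCC and TBCD, and that of TUBB, lay within the span of the non-human controls, -0.22 to 0.20. The share of cofactors called was 80%, beside 66.5% of all genes.

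The nearest tested genes on each side of the other ring complex genes were read as for MZT1. Most were directly adjacent, but 1 untested gene lies between CDK17 and NEDD1, 3 between TEX29 and TUBGCP3, and 10 between UBE3A and TUBGCP5. RETREG3, beside TUBG1, was lower (-0.59). ZSCAN29, beside TUBGCP4, was higher by 0.40, and TP53BP1 on its other side stood at 0.13 and was not called (limma adjusted p = 0.0578). CDK17, on one side of NEDD1, was lower (-0.92), and so was TMPO on its other side (-0.36). Of 14 such neighbours that are not members, 2 were higher, 6 lower and 6 not called, beside 32.4% higher and 34.1% lower of all genes tested.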
